A study of Mus musculus with 35 samples.

Results

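The genes described here encode the voltage-gated ion channels and the potassium channels of the mouse medial prefrontal cortex (mPFC). They were chosen by symbol. Symbols that begin with Kcn, the symbols Hcn with a number, the Scn genes of alpha and beta subunits, the Cacna genes and Cacnb1 to Cacnb4 were taken, without symbols that end in os. The rule found 111 of the 14870 measured genes: 79 potassium, 17 calcium, 11 sodium and 4 HCN channel genes. Expression was measured as log2 CPM, the log2 of the reads of a gene scaled to the reads of its library, in 35 bulk mPFC libraries of mice deficient in Shank3 (KO) and wild-type (WT) mice. Shank3 encodes a scaffold protein of excitatory synapses. The groups were KO_abx_and_acetate (n = 4), WT_abx_and_acetate (n = 4), KO_acetate (n = 5), WT_acetate (n = 5), KO_abx (n = 3), WT_abx (n = 4), KO_control (n = 4) and WT_control (n = 6), where abx stands for antibiotics and control mice had water. Each group but KO_abx and WT_control held 4 or 5 libraries, and the labels list 15 females and 20 males. The Shank3 allele, the strain, the age, and whether the loss is limited to any cell type are not named in the sources used here. Nothing in the labels says that each library came from an animal of its own, and p-values cover only the spread between these libraries, part of which may be technical.

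Ion channels set how a neuron turns its input into spikes. Sodium channels open first and drive the spike, potassium channels return the membrane to rest and set how often it can fire, and calcium channels couple the spike to transmitter release and to signalling inside the cell. HCN channels open when the membrane is hyperpolarised and shape how dendrites of cortical pyramidal neurons sum their inputs. Most channels combine pore subunits with auxiliary subunits that set their number and kinetics, and both kinds are among the genes described.

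The libraries held 12772454 to 28027869 reads, and the channel genes took 0.989 to 1.18% of them. At this depth 84 of the 111 genes had at least 100 reads in every library, while 7 had under 10 reads in some library and 6 had a mean below 0 log2 CPM. Shank3 lay at 4.07 to 5.11 log2 CPM in KO libraries and 7.48 to 8.85 in WT libraries. In the libraries labelled WT_abx 4, WT_acetate 2 and WT_acetate 5 it lay below the other WT libraries, though above every KO library. In WT_abx 3, WT_acetate 2, WT_acetate 4 and WT_acetate 5 Y-linked genes went against the labelled sex. These libraries, 5 in all, are called the libraries against their labels below. Slc17a7, the vesicular glutamate transporter of cortical excitatory neurons, stood at 10.48 to 11.06 log2 CPM in all libraries. It is only 1 of the listed excitatory markers. Their mean deviation from the mean of all libraries was lowest in KO_acetate 1, where Slc17a7 itself stood at 10.86. One library stood apart by tissue markers. KO_acetate 1 had the striatal dopamine receptors Drd1 at 5.62 and Drd2 at 4.93 log2 CPM, against at most 3.55 and 0.70 in the other libraries, and its mean deviation over 10 striatal markers from the mean of all libraries was 3.06 on the log2 scale. The library labelled WT_abx 4 had the highest mean choroid plexus deviation, 3.57 over the 4 measured of 7 listed markers. Many of the values that move with these libraries are given with and without them, though not all. In bulk tissue, fewer cells of a type and less RNA per cell cannot be told apart.

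Levels between genes were compared as CPM per kilobase of annotated exon. Kcnab2, a beta subunit of Kv1 channels, was the highest potassium channel gene at 86.2 CPM per kilobase, followed by Kcnj4 at 63.1 and Kcnj9 at 46.9, both inward rectifiers, and the leak channel Kcnk1 at 45.2. Among pore families of delayed rectifiers, the highest members were Kcna2 for Kv1 (29.0 CPM per kilobase) and Kcnc4 for Kv3 (35.3). Kcnd2, the highest Kv4 gene and a source of the transient A-type current, stood at 17.6 CPM per kilobase. Kcnh3 led the ether-a-go-go genes at 37.7, Kcnmb4, an auxiliary subunit of the large-conductance calcium-activated channel, led its family at 25.2, and Kcnn2 led the small-conductance genes at 5.76. Kcnf1, a pore subunit that is silent on its own and changes Kv2 channels, led the modifier subunits at 43.0 CPM per kilobase.

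Auxiliary subunits also stood high in the sodium and calcium classes. Scn2b, a sodium channel beta subunit, was at 60.0 CPM per kilobase. Among the sodium pore genes, Scn8a (27.5 CPM per kilobase), which acts at the axon initial segment, and Scn2a1 (26.7) were close, Scn1a, known from fast-spiking interneurons, stood at 14.1, and Scn3a, which is best known from the developing brain, at 3.41. Scn7a and Scn9a, known from the periphery, lay at 0.493 and 0.302. In the calcium class the beta subunit genes Cacnb3, Cacnb1 and Cacnb4 stood at 66.4, 37.7 and 31.9 CPM per kilobase. The highest pore genes were Cacna1a of P/Q-type channels (19.0), Cacna1i of T-type channels (18.7) and Cacna1b of N-type channels (15.8), while the L-type genes Cacna1c and Cacna1d stood at 4.39 and 4.13 and the retinal gene Cacna1f at 0.098. Hcn2 was the highest HCN gene at 50.3 CPM per kilobase, above Hcn3 (4.50) and Hcn4 (0.50).

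Each gene was tested with limma in 1 fit over all libraries, in 18 comparisons with p-values adjusted over all 14870 genes by the Benjamini-Hochberg method and a threshold of 0.05. One of the 111 channel genes passed the threshold in 1 of the comparisons. That gene was Kcnj3, which was higher in WT_abx_and_acetate than in WT_control. In that comparison 0.726% of all genes passed, 108 of 14870, and 0.343% passed as higher. At an unadjusted p under 0.05 it reached 6 channel genes higher and 3 lower (8.11%, against 14.4% of all genes, 7.04% higher and 7.32% lower). A test of whether a gene differed among any of the 8 groups called 0 of 111 members by limma and 0.0403% of all genes. It gave 12 members at an unadjusted p under 0.05, 10 of the potassium and 2 of the calcium class, while 9.05% of all genes reached that level. The smallest adjusted p of a channel gene in that test was 0.358, for Kcnj3.

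Kcnj3 encodes GIRK1, a subunit of the inwardly rectifying potassium channel that G proteins open when receptors such as GABA-B are active. In WT_abx_and_acetate it stood at 7.43, 7.31, 7.32 and 7.54 log2 CPM. In WT_control it had a lowest value of 6.87, a median of 7.02 and a highest of 7.31. All 4 WT_abx_and_acetate libraries lay above 5 of the 6 WT_control libraries, and WT_control 3 overlapped them. The means were 7.40 ± 0.11 in WT_abx_and_acetate (SD, n = 4) and 7.04 ± 0.15 in WT_control (SD, n = 6). The limma log2 fold was 0.36 ± 0.08 (SE; 95% interval 0.19 to 0.54), a 1.29-fold higher level, with an adjusted p of 0.0353. The gene lies on chromosome 2 (GRCm38, 55435970 to 55598145, plus strand), and an exon of Gm26794 on the opposite strand overlaps it.

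The Kcnj3 call was close to the threshold. It was lost with RNA integrity as a further term (adjusted p = 0.0636) and in a fit of only the libraries compared (adjusted p = 0.0819), and the log2 fold was 0.35 and 0.37 in these fits. Of 35 limma fits that each left out 1 library, 27 kept the call. It was lost without WT_control 1, 2, 4, 5 or 6 (adjusted p = 0.0748, 0.0625, 0.0809, 0.0715 and 0.0529) and without WT_abx_and_acetate 1, 3 or 4 (adjusted p = 0.117, 0.0853 and 0.0997). The log2 fold stayed between 0.31 and 0.43 over the 35 fits. Without the 5 libraries against their labels it was 0.37 with an adjusted p of 0.0317. In the same comparison the 6 excitatory neuron markers had a median log2 fold of 0.11 with 5 positive, the 10 oligodendrocyte markers were all negative (median -0.21) and 7 of 8 astrocyte markers were negative (median -0.14). None of these markers passed the threshold, and their part in the Kcnj3 result was not tested.

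The means of the other 6 groups lay between these levels. Kcnj3 was at 7.15, 7.04, 7.19 and 7.15 log2 CPM in KO_abx_and_acetate, at 6.99, 7.29, 7.33, 7.35 and 7.13 in KO_acetate, at 7.06, 7.20 and 7.25 in KO_abx, and at 7.02, 7.14, 7.11 and 7.11 in KO_control. In WT_acetate it was at 7.31, 7.10, 7.47, 7.23 and 7.06 and in WT_abx between 6.99 and 7.32. All 4 KO_abx_and_acetate libraries lay below all 4 WT_abx_and_acetate libraries. The log2 fold of KO over WT under abx_and_acetate was -0.27 ± 0.09 (SE), with an unadjusted p of 0.00679 and an adjusted p of 0.999 by limma. The interaction, the difference between KO and WT in the abx_and_acetate effect, was -0.33 ± 0.13 (SE), with an unadjusted p of 0.0134 and an adjusted p of 0.999. Acetate alone gave 0.13 ± 0.09 in KO and 0.20 ± 0.08 in WT, and antibiotics alone 0.08 ± 0.10 in KO and 0.07 ± 0.08 in WT (log2 fold over control ± SE). None of these passed the threshold.

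The other subunits that form GIRK channels with Kcnj3 did not pass the threshold. Kcnj6 encodes GIRK2, Kcnj9 encodes GIRK3, and Kcnj5 encodes GIRK4, which is best known from the heart. Kcnj9 stood at 7.57, 7.64, 7.68 and 7.68 log2 CPM in WT_abx_and_acetate and between 7.58 and 7.84 in WT_control, and its log2 fold was -0.06 ± 0.12 (SE; 95% interval -0.31 to 0.19). Kcnj6 stood at 4.91, 4.88, 4.58 and 5.10 log2 CPM in WT_abx_and_acetate and between 4.83 and 5.06 in WT_control. Both genes overlapped between these groups. Under antibiotics alone Kcnj6 stood at 4.69, 4.54, 4.85 and 4.31 log2 CPM in WT_abx, overlapping WT_control by 1 library, with a log2 fold of -0.35 ± 0.12 (SE) over WT_control with an adjusted p of 0.329. Kcnj5 had a mean of -1.05 log2 CPM over the 35 libraries and a within-group SD of 0.65, so a change of the size of that in Kcnj3 was not detectable at this depth.

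**Figure D1:**
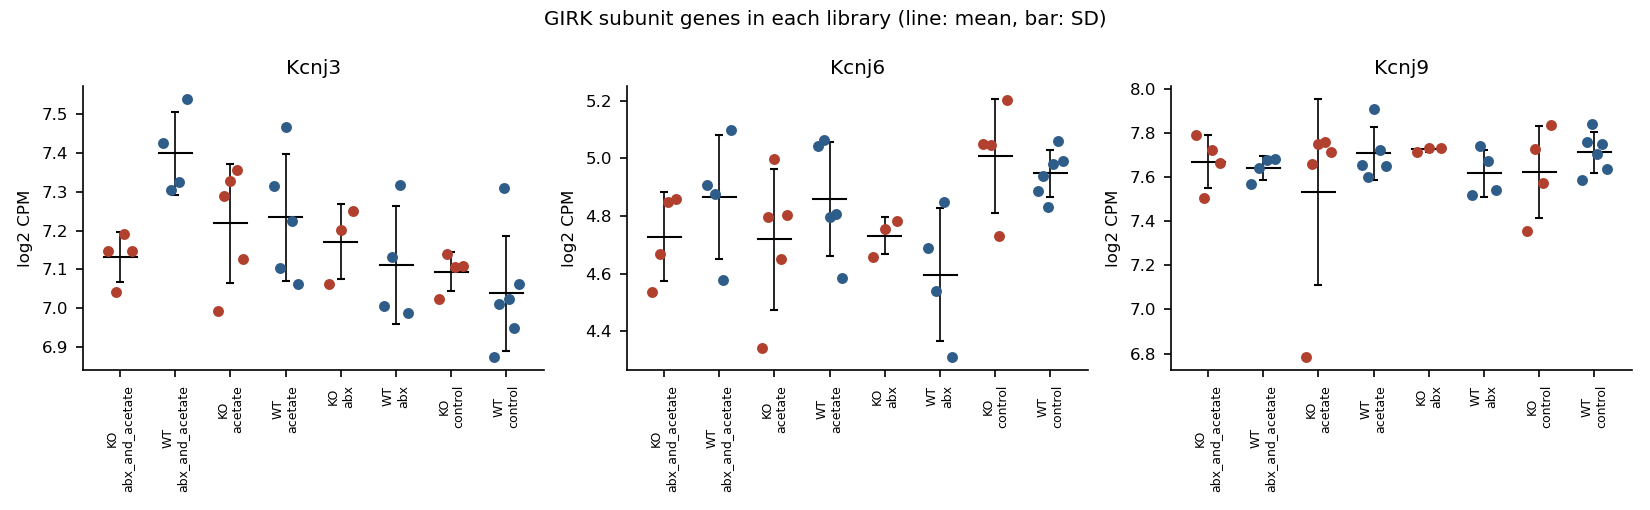
Log2 CPM of Kcnj3, Kcnj6 and Kcnj9 (vertical axes) in each library of the 8 groups (horizontal axes), KO in red and WT in blue. Each point is a library, the line is the group mean and the bar the SD. The 4 WT_abx_and_acetate libraries of Kcnj3 sit between 7.31 and 7.54, all above the KO_abx_and_acetate libraries at 7.04 to 7.19, while Kcnj6 and Kcnj9 overlap between these groups.

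The 250 bases before the RefSeq transcript starts of the 3 neuronal GIRK genes are shown because Kcnj3 passed the threshold and its partners did not. They are from RefSeq on GRCm38.p6, written 5′ to 3′ on the gene's strand, with each CpG in capitals. They lie at chr2:55435720-55435969 (plus strand) for Kcnj3, chr16:94997697-94997946 (minus strand) for Kcnj6 and chr1:172329323-172329572 (minus strand) for Kcnj9.
Kcnj3: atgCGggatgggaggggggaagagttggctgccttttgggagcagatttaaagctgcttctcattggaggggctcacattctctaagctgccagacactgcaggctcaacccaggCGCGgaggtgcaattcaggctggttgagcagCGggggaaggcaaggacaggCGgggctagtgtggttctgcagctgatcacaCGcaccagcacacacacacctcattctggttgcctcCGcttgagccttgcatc
Kcnj6: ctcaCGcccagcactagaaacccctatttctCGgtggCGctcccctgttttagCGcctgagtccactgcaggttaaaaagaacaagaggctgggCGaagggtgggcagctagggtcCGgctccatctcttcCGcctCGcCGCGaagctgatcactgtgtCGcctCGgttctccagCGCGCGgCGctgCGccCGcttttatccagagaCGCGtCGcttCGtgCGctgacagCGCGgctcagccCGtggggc
Kcnj9: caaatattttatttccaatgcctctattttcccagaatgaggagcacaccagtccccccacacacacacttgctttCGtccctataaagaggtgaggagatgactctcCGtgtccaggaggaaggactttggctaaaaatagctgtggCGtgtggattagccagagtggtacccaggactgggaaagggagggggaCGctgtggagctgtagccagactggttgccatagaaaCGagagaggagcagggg
Kcnj3 had 7 CpG and a GC content of 58.4%, Kcnj6, for which the more upstream of 2 windows is shown, had 26 CpG and 64%, and Kcnj9 had 5 CpG and 52%. RefSeq windows were found for 79 of the 111 genes. The window taken for Kcnk6 lies on chromosome 19, carries the RefSeq symbol Kcnk7 and holds a GC box. RefSeq thus assigns it to another gene, and it was kept in the 79 and in the shares that follow. On either strand, the GC box GGGCGG occurred in 63.3% of those genes against 62.3% of all measured genes with a window, the E-box CACGTG in 5.06% against 9.56%, and the TATA box TATAAA in 6.33% against 8.22%. The cAMP response element TGACGTCA occurred in 0 of the 79 genes against 2.94%. The median number of CpG per 250 bases was 8 in channel genes and 15 in all measured genes with a window. These are counts of letters and not of bound factors.

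The comparison of KO with WT mice asks how loss of Shank3 bears on the channels under each treatment. By limma 0 of 111 channel genes passed the threshold in any of the 4 treatments or over their mean. All genes passed at 0.0134% under abx_and_acetate, 0.00672% under acetate, 0.0134% under abx, 0.0202% in control and 0.0202% over the mean of treatments. At an unadjusted p under 0.05, 5 members were reached under abx_and_acetate (4.5%, against 3.7% of all genes), 11 under acetate (9.91%, against 5.97%), 7 under abx (6.31%, against 3.78%) and 2 in control (1.8%, against 4%). Over the mean of treatments 9 were reached (8.11%, against 5.25%), 7 higher and 2 lower, where 2.49% of all genes were higher and 2.75% lower.

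These counts moved with single libraries, and the share of all genes at that level often moved with them. Over the mean of treatments 3 were higher and 1 lower without KO_abx_and_acetate 3 (3.6%, against 4.39% of all genes), and 8 higher and 6 lower without KO_acetate 3 (12.6%, against 6.03%). Without the 5 libraries of low WT Shank3 or of sex-linked genes against their labels, 8 were higher and 8 lower (14.4%, against 8.01%), with as many lower as higher. Under abx_and_acetate 0 were higher and 5 lower with all libraries, where 1.94% of all genes were higher and 1.76% lower. Without WT_abx_and_acetate 4 that split was 2 higher and 2 lower (3.6%, against 3.87% of all genes), without WT_acetate 5 it was 0 and 10 (9.01%, against 4.4%), and in a fit of only the libraries compared 0 and 14 (12.6%, against 7.18%). Under acetate 4 were higher and 7 lower with all libraries (3.05% and 2.92% of all genes), 0 higher and 1 lower without KO_acetate 1 (0.901%, against 2.57% of all genes), and 6 higher and 12 lower without KO_acetate 3 (16.2%, against 9.23%). Under abx 7 were higher and 0 lower with all libraries (1.61% and 2.17% of all genes), 2 higher and 1 lower without the library labelled WT_abx 4 (2.7%, against 3.34% of all genes), and 13 higher and 1 lower without the library labelled WT_abx 3 (12.6%, against 5.78%). Without the 5 libraries against their labels, 0 were higher and 10 lower under abx_and_acetate (9.01%, against 4.59% of all genes), 5 higher and 13 lower under acetate (16.2%, against 6.36%), and 1 higher and 0 lower under abx (0.901%, against 3.68%).

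Over the mean of treatments, the channel gene with the smallest p was Kcnq3, a Kv7 subunit gene of the M current that muscarinic receptors close. Its log2 fold of KO over WT was 0.16 ± 0.05 (SE; 95% interval 0.07 to 0.26), a 1.12-fold difference with an unadjusted p of 0.00137 and an adjusted p of 0.746 by limma. Under abx it stood at 7.90, 7.71 and 7.76 log2 CPM in KO and at 7.45, 7.46, 7.70 and 7.21 in WT. All 3 KO_abx libraries lay above all 4 WT_abx libraries, with the lowest KO value next to the highest WT value. In control it stood at 7.69, 7.88, 7.75 and 7.80 log2 CPM in KO, against a lowest of 7.52, a median of 7.60 and a highest of 7.72 in WT. There 3 of 4 KO libraries lay above all 6 WT libraries. Under acetate and under abx_and_acetate the groups overlapped, with means of 7.66 ± 0.09 in KO_acetate and 7.57 ± 0.21 in WT_acetate (SD, n = 5 each), and of 7.74 ± 0.16 in KO_abx_and_acetate and 7.69 ± 0.05 in WT_abx_and_acetate (SD, n = 4 each).

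The other channel genes with small unadjusted p over the mean of treatments are given as values, since none passed the threshold. Kcnn1 of the small-conductance calcium-activated channels had a log2 fold of 0.12 ± 0.05 (SE), as had Kcnip1, a calcium-binding partner of Kv4 channels. Scn3a had 0.15 ± 0.07, the T-type gene Cacna1h 0.17 ± 0.08 (0.10 without KO_control 1) and Hcn4, the pacemaker channel of the heart, 0.49 ± 0.22. Their adjusted p was 0.931 each. Within treatments, Kcnf1 had the smallest p in control (-0.29 ± 0.12, and -0.16 without KO_control 1), Kcnh3, an ether-a-go-go channel of the forebrain, under acetate (-0.34 ± 0.11, and -0.17 without KO_acetate 1), and Kcnj3 under abx_and_acetate. Under abx the N-type calcium gene Cacna1b (0.32 ± 0.11) and Cacna2d1 (0.34 ± 0.14), an extracellular auxiliary subunit, followed Kcnq3. The Cacna2d1 value was 0.22 without KO_abx 1, 0.22 without WT_abx 4 and 0.52 without KO_abx 3.

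By class, the calcium channel genes had mostly positive log2 folds under abx. There 16 of 17 calcium genes had a positive value of KO over WT with a median of 0.12, against a median of 0.001 over all genes with 7482 of 14870 positive. Sodium genes had 9 of 11 positive (median 0.17), and potassium genes 45 of 79 (median 0.03). The calcium median was 0.06 with 12 positive without KO_abx 3 and 0.18 with 17 positive without KO_abx 1. It is not given without the library labelled WT_abx 4. Without that library Cacna1b and Cacna2d1, the calcium genes of smallest p, had log2 folds of 0.25 and 0.22, against 0.32 and 0.34 with it. Under acetate 5 of 17 calcium genes were positive (median -0.08, and -0.01 without KO_acetate 1), under abx_and_acetate 8 (median -0.05) and in control 13 (median 0.05). The mean deviation of the calcium class from the mean of all libraries was 0.08 in KO_abx and 0.09 in KO_control. It was -0.09 in WT_abx, with a lowest library of -0.25, and 0.04 in WT_control. The same WT_abx libraries enter the comparisons of WT_abx with WT_control and with WT_abx_and_acetate below, so the 3 results are not separate. Genes of a class share libraries, so these counts describe the libraries and carry no test. In the same abx comparison 5 of 6 upper-layer neuron markers had a positive log2 fold (median 0.25), while the 6 deep-layer, 10 oligodendrocyte and 7 endothelial markers were all negative (medians -0.24, -0.38 and -0.20). None of these markers passed the threshold, and their part in the class medians was not tested.

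**Figure D2:**
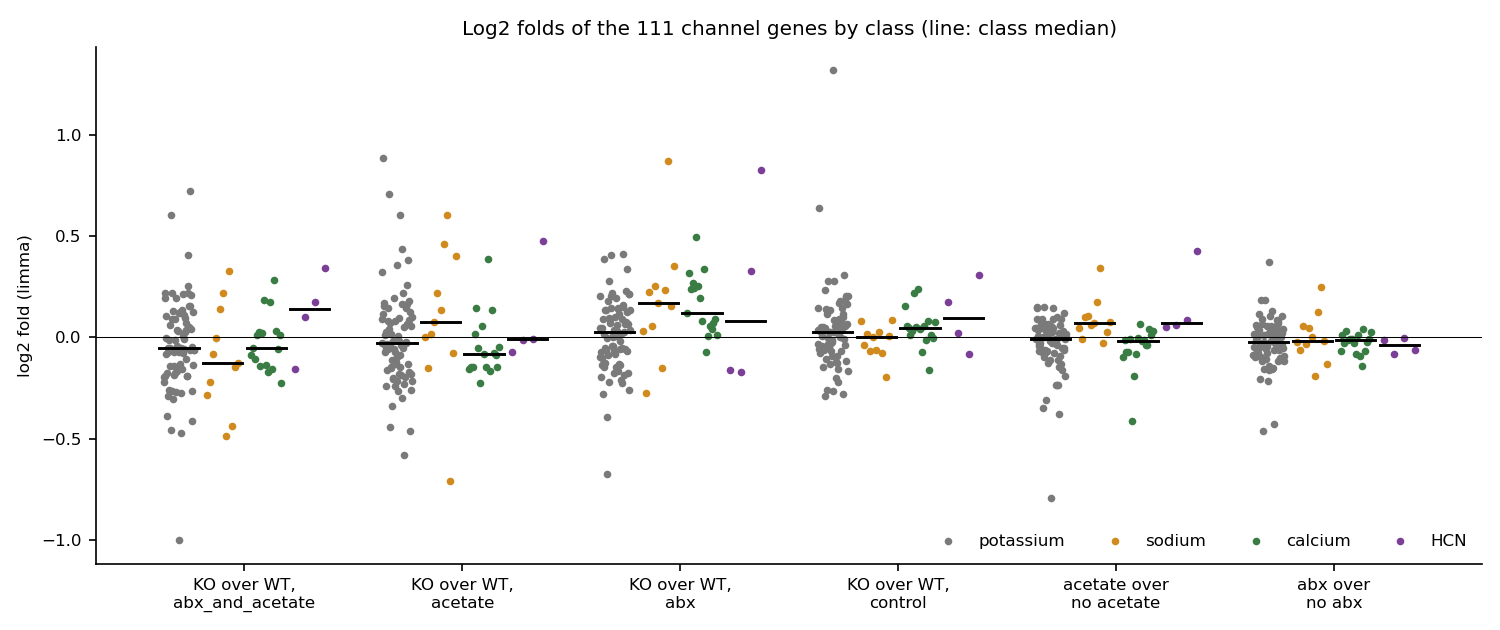
Limma log2 folds (vertical axis) of the 111 channel genes in 6 comparisons (horizontal axis), coloured by class, with the class median as a line. Each point is a gene. For KO over WT under abx, 16 of the 17 calcium genes sit above 0. The highest point for KO over WT in control is Kcnj13 (1.32) and the highest under acetate is Kcna5 (0.89), both genes of low level.

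Acetate, a short-chain fatty acid that gut bacteria make, was compared over both genotypes with and without antibiotics. By limma 0 of 111 channel genes passed the threshold, while 0.0672% of all genes did. At an unadjusted p under 0.05, 5 were higher and 6 lower (9.91% in all, against 18.1% of all genes, 8.96% higher and 9.16% lower). Kcnj3 had the smallest p, with a log2 fold of 0.14 ± 0.04 (SE) and an adjusted p of 0.128. The WT_abx_and_acetate and WT_control libraries that gave the Kcnj3 call are part of this comparison, so it is not a separate result. Kcnmb1, a BK beta subunit gene known from smooth muscle, had -0.38 ± 0.12 (adjusted p = 0.133) and Kcnh4 of the ether-a-go-go family -0.31 ± 0.10 (adjusted p = 0.146). Among sodium genes Scn2b had 0.11 ± 0.04 and Scn2a1 0.10 ± 0.06, and among calcium genes the T-type gene Cacna1g had -0.19 ± 0.08 and Cacna1a -0.10 ± 0.05. Sodium genes had a positive log2 fold in 9 of 11 (median 0.07), calcium genes in 4 of 17 (median -0.02) and potassium genes in 37 of 79 (median -0.01), where all genes had a median of -0.0004. In the same comparison the 7 meningeal markers were all negative (median -0.64), as were the 8 astrocyte markers (median -0.11), and 9 of 10 striatal markers were positive (median 0.23). The striatal value includes KO_acetate 1, where Drd1 and Drd2 stood at 5.62 and 4.93 log2 CPM, against at most 3.55 and 0.70 elsewhere. It is not given without that library. The part of all these markers in the channel values was not tested.

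Within KO mice the acetate comparison reached 15 channel genes at an unadjusted p under 0.05 (13.51%), beside 13% of all genes. Of these 5 were higher and 10 lower, where 6.6% of all genes were higher and 6.44% lower, and 0 of 111 passed the threshold by limma, as 0% of all genes did. Cacna1a, the pore gene of P/Q-type channels that trigger transmitter release, stood at 7.30, 7.64, 7.75, 7.67 and 7.80 log2 CPM in KO_acetate and at 8.14, 7.94, 7.77 and 7.98 in KO_control. It was lower in 4 of 5 KO_acetate libraries than in every KO_control library, and in 3 of the 4 without KO_acetate 1, which was the lowest. Without that library 5 channel genes were higher and 5 lower at an unadjusted p under 0.05 (9.01%, against 9.83% of all genes). With all libraries the log2 fold of Cacna1a was -0.33 ± 0.09 (SE), with an adjusted p of 0.205 by limma. Without KO_acetate 1 it was -0.24. Kcna6 of Kv1 channels stood at 7.19, 7.31, 7.11, 7.11 and 7.21 log2 CPM in KO_acetate and at 6.70, 7.08, 6.99 and 6.67 in KO_control, with no overlap and a log2 fold of 0.32 ± 0.10. Cacna1c had -0.27 ± 0.09 and Cacna1g -0.47 ± 0.16, which was -0.26 without KO_acetate 1. In WT mice acetate over control reached 4 channel genes at that level (3.6%, against 9.41% of all genes), and the threshold was passed by 0 of 111 with 0.00672% of all genes.

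Antibiotics were compared over both genotypes with and without acetate. By limma 0 of 111 channel genes and 0% of all genes passed the threshold. Channel genes with an unadjusted p under 0.05 were 1 higher and 6 lower (6.31% in all, against 7.32% of all genes, 3.69% higher and 3.63% lower). They were 1 higher and 12 lower without KO_control 1 (11.7%, against 9.52% of all genes), and 0 higher and 3 lower without KO_abx 1 (2.7%, against 4.75%). Kcnk13, a two-pore leak channel gene that is known from microglia, had the smallest p, with a log2 fold of -0.43 ± 0.14 (SE) and an adjusted p of 0.546. In KO mice it stood at 2.05, 2.38, 1.37 and 1.93 log2 CPM in KO_abx_and_acetate, at 1.59, 2.41 and 2.46 in KO_abx, and at 2.31, 2.40, 2.50 and 2.94 in KO_control. In WT mice it stood at 2.22, 1.75, 1.85 and 2.07 log2 CPM in WT_abx_and_acetate, at 2.58, 2.12, 1.81 and 2.13 in WT_abx, and at a lowest of 2.26, a median of 2.74 and a highest of 3.01 in WT_control. All 4 WT_abx_and_acetate libraries lay below all 6 WT_control libraries, and the values of WT_abx overlapped both. The KO groups overlapped each other. Kcnk1, another leak channel gene, had -0.15 ± 0.06 and Kcnj6 -0.15 ± 0.06.

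In WT mice alone, antibiotics over control reached 11 channel genes at an unadjusted p under 0.05 (9.91%, against 9.05% of all genes), 1 higher and 10 lower, where 4.08% of all genes were higher and 4.96% lower. By limma 0 of 111 passed the threshold, as 0% of all genes did. Calcium genes were negative in 15 of 17, with a median log2 fold of -0.17 that was -0.09 without the library labelled WT_abx 4. Without that library 0 channel genes were higher and 1 lower at that level (0.901%, against 6.5% of all genes), and without the 5 libraries against their labels 0 were higher and 2 lower (1.8%, against 3.01%). They were 2 higher and 5 lower without WT_control 4 (6.31%, against 7.43%) and 1 higher and 5 lower without WT_control 5 (5.41%, against 7.48%). In the same comparison all 7 meningeal markers were positive (median log2 fold 0.45), 9 of 10 oligodendrocyte markers were positive (median 0.18), the 6 deep-layer markers were all positive (median 0.35) and the 6 upper-layer markers all negative (median -0.27). Their part in the calcium median was not tested. Adding acetate to antibiotics in WT mice, WT_abx_and_acetate over WT_abx, reached 18 channel genes at that level (16.22%, against 6.12% of all genes, 3.36% higher and 2.76% lower), all of them higher, with 0 of 111 and 0% of all genes past the threshold by limma. The smallest p was that of Kcnh7, an ether-a-go-go gene of the Erg group, at 7.29, 7.14, 7.24 and 7.54 log2 CPM in WT_abx_and_acetate and 6.97, 6.82, 7.17 and 6.76 in WT_abx. Its log2 fold was 0.38 ± 0.10 (SE) with an adjusted p of 0.582, and only the lowest WT_abx_and_acetate value overlapped WT_abx. The count of 18 was 5 without WT_abx 4 (4.5%, against 3.07% of all genes) and 8 without the 5 libraries against their labels (7.21%, against 3.54%), with 0 lower in both, and 10 higher and 1 lower without WT_abx_and_acetate 4 (9.91%, against 6.56%). In WT_abx 4, 14 members were at their lowest of all libraries (12.6%, against 6.12% of all genes). In WT_abx_and_acetate 4, 12 were at their highest (10.8%, against 8.19% of all genes). Between these groups the 7 meningeal and 10 oligodendrocyte markers were all negative (median log2 folds -0.73 and -0.42) and 7 of 8 astrocyte markers were negative (median -0.17), while the 6 upper-layer and 6 excitatory neuron markers were all positive (medians 0.24 and 0.07). Their part in the count of 18 was not tested.

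In KO mice, antibiotics over control reached 5 channel genes at an unadjusted p under 0.05 (4.5%, against 3.3% of all genes), antibiotics with acetate over control 9 (8.11%, against 7.42%), and antibiotics with acetate over antibiotics 1 (0.9%, against 2%). By limma 0 of 111 passed the threshold in each, with 0.0134%, 0% and 0% of all genes. The 3 interactions, which ask whether a treatment acted differently in KO and WT mice, also gave 0 of 111 by limma, as they gave 0% of all genes. At an unadjusted p under 0.05 they reached 3 channel genes for abx (2.7%, against 2.47% of all genes), 5 for acetate (4.5%, against 3.65%) and 7 for abx_and_acetate (6.31%, against 4.53%).

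The HCN genes carry the h current and were followed in all groups. Hcn2 averaged between 7.20 ± 0.25 in KO_abx and 7.43 ± 0.28 in WT_acetate (SD), and Hcn3 between 4.02 ± 0.20 in WT_abx and 4.35 ± 0.08 in KO_abx. Hcn3 stood at 4.28, 4.34 and 4.44 log2 CPM in KO_abx and at 3.86, 4.24, 4.15 and 3.84 in WT_abx, with all KO libraries above all WT libraries. Its log2 fold was 0.33 ± 0.15 (SE), with an unadjusted p of 0.0416 and an adjusted p of 0.995.

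Hcn4 had a within-group SD of 0.66 log2, against 0.19 for Hcn2 and 0.20 for Hcn3. It ran from 0.44 log2 CPM in WT_abx 1 to 3.24 in KO_acetate 1. Its KO mean was above its WT mean in each treatment: 1.93 ± 0.61 and 1.61 ± 0.76 under abx_and_acetate, 2.14 ± 0.85 and 1.68 ± 0.61 under acetate, 1.83 ± 1.21 and 0.99 ± 0.50 under abx, and 1.56 ± 0.34 and 1.25 ± 0.36 in control (KO and WT, SD). The groups overlapped in every treatment. For acetate over both genotypes all 4 HCN genes had a positive log2 fold, with a median of 0.07 and 0.43 ± 0.22 (SE) for Hcn4, and for antibiotics all 4 had a negative one, with a median of -0.04. The Hcn4 value for acetate was 0.36 without KO_acetate 1 and 0.26 without KO_abx 2. The adjusted p of the HCN genes was at least 0.299 and 0.856 in these comparisons by limma.

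**Figure D3:**
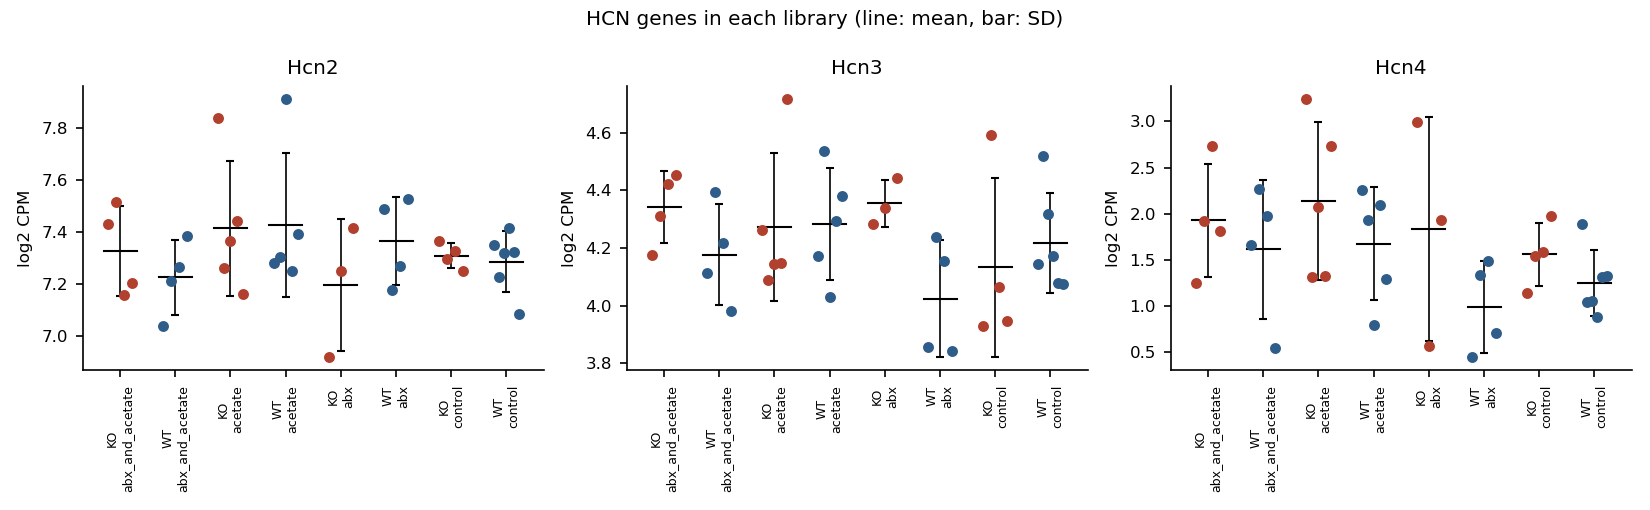
Log2 CPM of Hcn2, Hcn3 and Hcn4 (vertical axes, each with its own range) in each library of the 8 groups (horizontal axes), KO in red and WT in blue, with the group mean as a line and the SD as a bar. The 3 KO_abx libraries of Hcn3 lie above the 4 WT_abx libraries, and Hcn4 spreads from 0.44 to 3.24.

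The within-group SD had a median of 0.21 log2 over the 111 genes and 0.17 over all genes. It was highest for Kcnj13 at 1.62. Kcnj13 encodes an inward rectifier known from the choroid plexus. It was highest in the library labelled WT_abx 4 at 2.47 log2 CPM, where the choroid plexus marker Ttr was also highest, at 6.54. Its exons overlap Gigyf2 on the opposite strand, and the sources used here do not say whether reads were counted by strand. Kcnj8, Kcnj16 and Kcnj10, known from pericytes and astrocytes, had within-group SDs of 0.26, 0.22 and 0.27.

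A few libraries held many of the extremes. Of the 111 genes, 30 had their lowest value of all libraries and 19 their highest in KO_acetate 1, 27.0% and 17.1%, against 11.96% and 12.15% of all genes. KO_acetate 1 was the library with the highest mean striatal and oligodendrocyte marker deviations, 3.06 and 1.87, and the lowest excitatory one, -0.75. Kcna5 of Kv1 channels stood there at 4.35 log2 CPM, against 1.73, 1.47, 1.08 and 1.48 in the other KO_acetate libraries. The sodium beta subunit gene Scn4b was at 7.59, against 5.88, 6.02, 6.48 and 5.43. The leak channel gene Kcnk4 was lower, at 1.98 against 3.76, 4.26, 4.13 and 3.95, and so was Kcnh3, at 6.87 against 7.51, 7.83, 7.61 and 7.87.

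WT_acetate 3 held the highest value of 19 members, 17.1%, against 5.84% of all genes, and KO_abx 1 the lowest value of 15, 13.5%, against 4.17%. Both applied to 8 genes (7.21% of members, against 0.995% of all genes), Cacna2d3, Hcn2, Kcnab2, Kcnab3, Kcnc1, Kcng4 and Kcnj10 among them. This pair of libraries was picked with the values in view, so the count carries no test. Kcnab3, a Kv1 beta subunit gene, stood at 6.68 log2 CPM in WT_acetate 3 and between 4.70 and 5.24 in the other WT_acetate libraries, and at 4.42 in KO_abx 1 against 5.28 and 5.74 in the other KO_abx libraries. Pvalb, the calcium-binding protein of fast-spiking interneurons and no channel gene, was at its highest of all libraries in WT_acetate 3 (5.96 log2 CPM) and its lowest in KO_abx 1 (3.78). Kcnc1 encodes a Kv3 channel of the same cells. The mean deviation of the 7 interneuron markers was 0.19 in WT_acetate 3 and -0.34 in KO_abx 1. These were the highest and the lowest of the 35 libraries. Pvalb is itself among these 7 markers, so their mean is not separate from the Pvalb values. The part of these cells in the channel values was not tested.

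**Figure D4:**
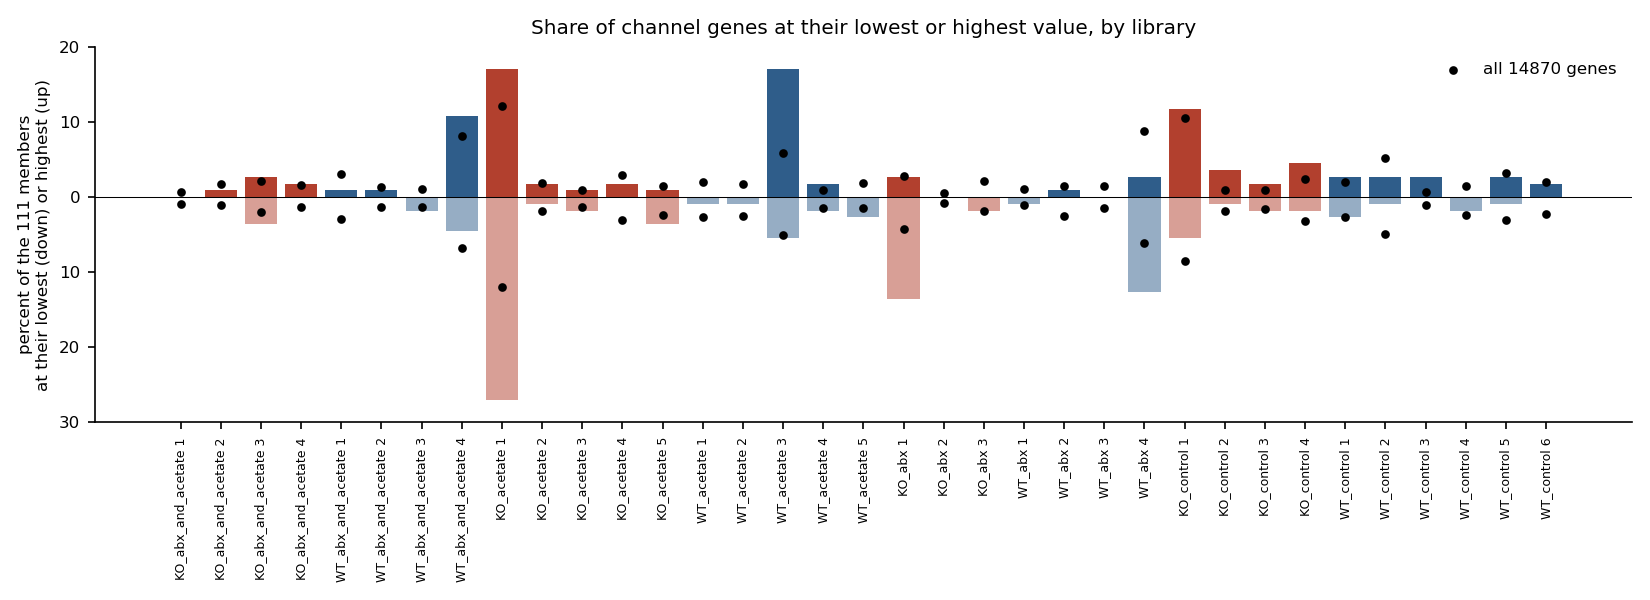
Share of the 111 channel genes (vertical axis, percent) whose highest (bars up) or lowest (bars down) value of all 35 libraries fell in each library (horizontal axis), KO in red and WT in blue. Black points give the same shares over all 14870 genes. KO_acetate 1 reaches 27.0% at the lowest and WT_acetate 3 17.1% at the highest, above their points.

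**Figure D5:**
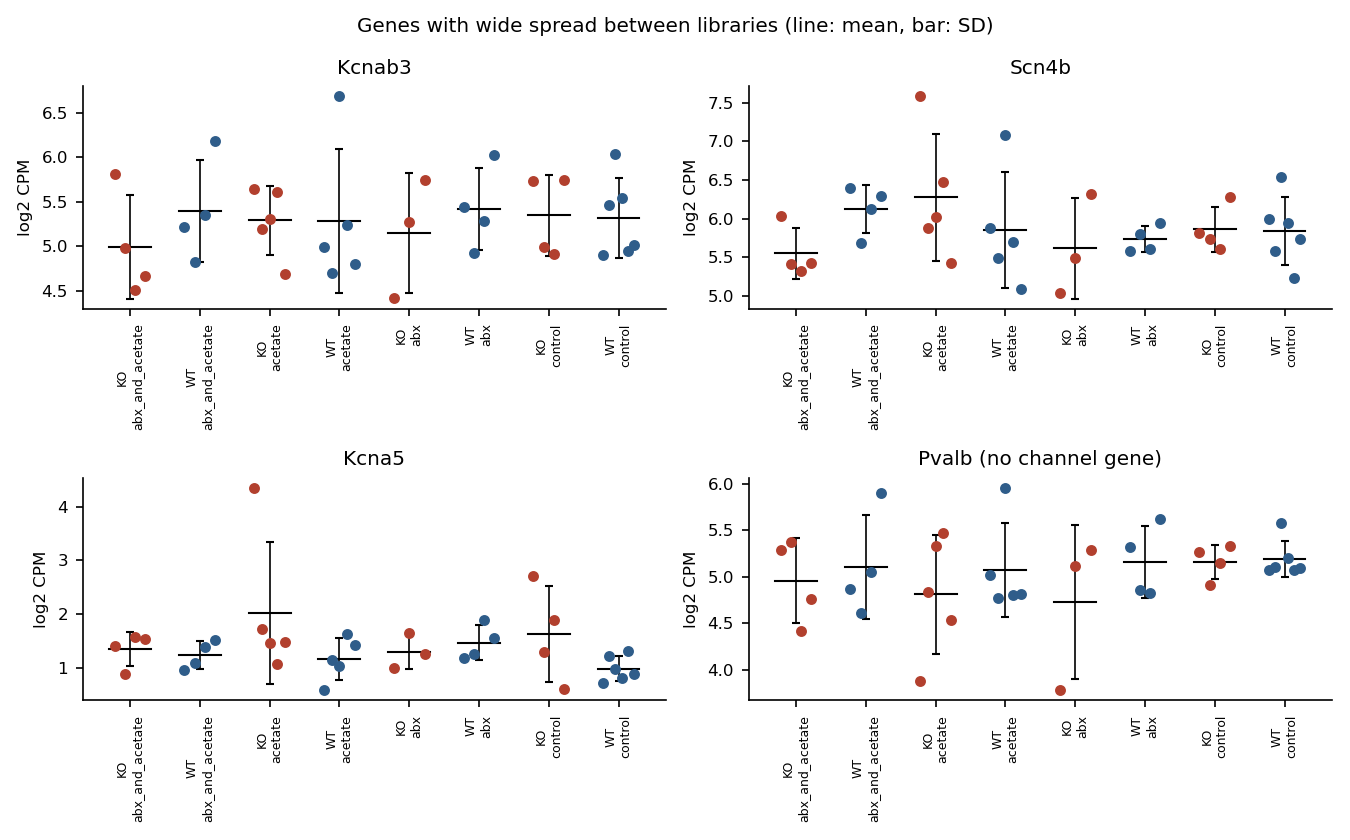
Log2 CPM (vertical axes) of 3 channel genes with wide spread and of the interneuron gene Pvalb in each library of the 8 groups (horizontal axes), KO in red and WT in blue, with the group mean as a line and the SD as a bar. WT_acetate 3 is the highest point for Kcnab3 and Pvalb, and KO_acetate 1 for Scn4b and Kcna5.

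The proteins that anchor, traffic or modulate these channels were counted from lists of 72 genes, of which 66 were measured. They comprised 13 anchors of the axon initial segment and node, 4 intracellular FGFs that bind sodium channels, 6 partners of Kv4, HCN and Kv2 channels, 16 measured calcium channel gamma and partner genes, 4 measured genes of the sodium leak channel complex, 15 measured chloride channel genes and 8 pumps and cotransporters. None of the 66 passed the threshold in any of the 18 comparisons by limma. At an unadjusted p under 0.05, 10 were higher and 1 lower in WT_abx_and_acetate over WT_control (16.7%, against 14.4% of all genes), and 9 higher and 4 lower for acetate over both genotypes (19.7%, against 18.1%). For antibiotics 0 were higher and 1 lower (1.52%, against 7.32%), and for KO over WT over the mean of treatments 1 was higher and 0 lower (1.52%, against 5.25%). Fgf14, an intracellular FGF that binds sodium channels at the axon initial segment, had a log2 fold of 0.31 ± 0.09 (SE) in WT_abx_and_acetate over WT_control with an adjusted p of 0.0659. All 8 pumps and cotransporters, the chloride exporter gene Slc12a5 among them, had a negative log2 fold for antibiotics, with a median of -0.04. In the WT_abx_and_acetate over WT_control comparison 40 of the 66 were positive with a median of 0.03, against 54 of the 111 channel genes with a median of -0.004 and 7456 of 14870 genes with a median of 0.001.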

How the data were processed

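RNA of 35 mPFC samples was sequenced by the submitters in paired reads from a strand-marking kit, per the labels' protocols. The deposited matrix holds log2 CPM of 14870 genes in the form that voom gives, log2 CPM with 0.5 added to the reads. All values (100%) gave whole reads within 0.01. The submitters' processing notes name limma. The aligner, the build, the annotation and the counting are not named in the sources used here. Libraries held 12772454 to 28027869 reads.

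The deposited log2 values were fitted with limma 3.58.1 in R 4.3.3, with 8 group means and the labelled sex, empirical Bayes with a trend, and Benjamini-Hochberg adjustment over all genes at 0.05. Groups came from the labels. The procedure was tested on simulated data. Gene positions are from GENCODE vM21 (GRCm38), in which all 111 genes were found, 1 through an older symbol, and 34 had exons that overlap an exon on the opposite strand.

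The members, gene lists and comparisons were chosen with earlier results of these data known. Named genes were those past the threshold, those of smallest p per class in 7 comparisons, the pore and auxiliary genes by role, the highest of each potassium family per length and those of widest spread. The GIRK partners, Kcna6, Kcnh7 and the genes listed for single libraries were chosen after their values were seen. Alternatives changed weights, filter, added count, scaling, covariates and samples. Some genes are not reported here.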

Additional observations from a re-analysis of the deposited data

Results flagged for a closer look

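For 20 described genes and the mean deviation of each of the 4 classes, each group of 4 to 6 libraries was searched for a library far from the others by Dixon's criterion at 95%. Of 168 sets of values, 18 held such a library. Chance alone gives about 5% of sets of unselected values, and the genes share libraries, so these are not independent. Some of the genes were described for their wide spread or after their values were seen. The count of 18 therefore cannot be set against that rate.

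WT_acetate 3 was far from the other WT_acetate libraries in 5 genes. There Kcnab3 stood at 6.68 log2 CPM against 4.70 to 5.24, Kcnj10 at 8.16 against 7.16 to 7.38 and Hcn2 at 7.91 against 7.25 to 7.39. Scn2a1 was lower there, at 8.07 against 8.44 to 8.57, and so was Scn3a, at 4.68 against 5.37 to 5.53.

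KO_acetate 1 was far from its group in 3 genes, with Kcna5 at 4.35 log2 CPM against 1.08 to 1.73, Kcnj9 at 6.78 against 7.66 to 7.76 and Scn2a1 at 8.10 against 8.46 to 8.59. Hcn3 stood at 4.72 in KO_acetate 5 against 4.09 to 4.26 in the other KO_acetate libraries.

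In the library labelled WT_acetate 5, Cacna1a stood at 7.61 log2 CPM against 7.81 to 7.86 and Scn8a at 8.54 against 8.83 to 8.92, and the mean deviation of the potassium class was -0.14 log2 against 0.0015 to 0.0477. In KO_abx_and_acetate 1, Scn1a stood at 7.50 against 7.03 to 7.08 and Scn4b at 6.03 against 5.32 to 5.43. Cacna1d was at 5.84 in KO_abx_and_acetate 3 against 5.65 to 5.68. Scn2a1 was at 8.58 in KO_control 2 against 8.27 to 8.29, and Scn8a at 8.89 in WT_control 3 against 8.72 to 8.79. The potassium class mean deviation in WT_abx_and_acetate 4 was 0.0135 log2 against -0.0008 to -0.0001, a narrow range in that group.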

How the results depend on the processing

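The number of channel genes past the threshold was the same in 860 results over all comparisons and alternatives and changed in 10, all of them the Kcnj3 call in WT_abx_and_acetate over WT_control. That count was 0 with RNA integrity as a term and 0 with only the libraries compared, where the count over all genes was 56 and 45 against 108. Leaving out 1 library gave 0 to 1. The count over all genes was 163 without the sex term, and 196 and 224 without 2 and 4 libraries that were chosen after seeing the data. The cause was not tested. No result reversed. Class medians moved by more than the spread in 48 results and stayed in 4077, and log2 folds of named genes moved in 14, lost the call in 10 (Kcnj3) and stayed in 9961. The planned edgeR test was not run, since the deposited unit is log2. No paired analysis was possible because the labels give no replicate numbers. Genes with under 10 reads in a library, 7 of 111, were limited by depth.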
